A study of Mus musculus with 9 samples.

Results

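The genes of MHC class II antigen presentation were examined in mouse kidney at 2 ages and after 3-hydroxybutyrate (3HB), a ketone body. Members were taken by gene name from the deposited tables. All 7 named genes, Cd74, H2-Aa, H2-Ab1, H2-DMa, H2-DMb1, H2-DMb2 and Ciita, were found among 489 distinct listed genes. The mice were of the ICR stock, which is outbred. There were 3 young mice (2 months, untreated), 3 old mice (20 months, untreated) and 3 mice of 20 months labelled with 3HB treatment, called 3HB mice. The treatment text of the labels, written for survival curves, has male ICR mice aged 11 months starting on drinking water with the sodium salt of 3HB (1 g/L). Each numbered sample is 1 bulk kidney library and is called a mouse here. The labels do not say whether the samples came from separate animals, so p-values measure only the spread between these samples, which may be technical. The labels give no batch, so age and any handling that went with it cannot be told apart.

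Class II molecules are pairs of an alpha and a beta chain that carry peptides from engulfed proteins to the cell surface, where CD4 T cells read them. Dendritic cells, macrophages and B cells express them constantly, and interferon-gamma induces them in other cells, the renal tubule included. The invariant chain holds the peptide groove closed during transport, H2-M then exchanges its remnant for a peptide, and the transactivator Ciita switches on all of these genes through proteins bound at the X and Y boxes of their promoters.

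The tables hold only genes that the authors called, and this limited the tests. Cd74, H2-Ab1 and H2-DMa were listed both for young against old and for 3HB against old. H2-DMb1, H2-DMb2 and Ciita were listed for age only, and H2-Aa for 3HB only. Where a gene was listed for a comparison, its values had chosen it, and that difference is given here without a test. The other differences of a member reuse mice of a group whose high or low values had listed it, so they too are given without a test. A two-sided exact permutation test of 3 mice against 3 cannot go below p = 0.1 in any case. The labels and the results text of the study name kidney, while 1 paragraph of its methods names muscle. Of 13 kidney markers 2 were listed and of 8 skeletal muscle markers 0 were, but listing depends on a change and not on the tissue, so these counts do not check it. The kidney gene Keg1 had values from 704.3 to 1636.6 over the 9 mice, and the endocytic receptor gene Lrp2 from 68.6 to 154.5. Both moved with a group. Keg1 was listed for age and lower in old mice (log2 difference -0.69), and Lrp2 was listed for 3HB and higher in 3HB than in old mice (0.66). Their part in the class II differences was not tested. The remaining markers were not analysed here.

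In the mouse genome (GRCm38, the build named in the submitters' processing notes) the 5 H2 members lie on chromosome 17 within 168.3 kb, from 34119541 to 34287823. H2-DMa, H2-DMb2, H2-DMb1 and H2-Ab1 are on the plus strand and H2-Aa is on the minus strand. Ciita is on chromosome 16 from 10480059 to 10528418, and Cd74 lies outside the MHC. Promoter sequences from RefSeq (GRCm38.p6) were matched by symbol for H2-Aa, H2-DMa, H2-DMb1 and H2-DMb2. They are shown because X and Y boxes are a known feature of class II promoters, and whether they bear on the differences between the groups was not tested. Capitals mark 3 searched letter patterns, AACNGATG for the X box, TGACGTCA for the adjoining X2 box and GATTGG for the Y box, each searched on both strands and chosen with these sequences in view. The H2-Aa stretch (chr17:34287852-34287917, minus strand) ends 29 bases before the start of transcription. The H2-DMb2 stretch (chr17:34145108-34145178, plus strand) ends 71 bases before the RefSeq start and lies in an intron of a longer GENCODE transcript. For H2-DMb1, 2 short stretches are printed (chr17:34153089-34153116 and chr17:34153119-34153144, plus strand), which precede the RefSeq start and fall in the first exon of the GENCODE transcript.
H2-Aa: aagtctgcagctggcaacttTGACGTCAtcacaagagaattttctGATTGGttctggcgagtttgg
H2-DMb2: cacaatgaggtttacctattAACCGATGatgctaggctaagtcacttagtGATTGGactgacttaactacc
H2-DMb1, X box: tttacctagtAACTGATGatgctaggct
H2-DMb1, Y box: ttcactcagtGATTGGtctgacctgc
In both H2-DMb genes the X box pattern was followed by the Y box pattern after 22 bases. H2-Aa held the X2 pattern 17 bases before the Y pattern. The X pattern occurred in 2.32% of 32851 RefSeq promoters of 300 bases, the X2 pattern in 1.79% and the Y pattern in 16.1%. An X followed within 30 bases by a Y on the strand of the gene was found in 6 promoters, and 4 of these were class II genes, H2-DMb1, H2-DMb2, H2-Eb1 and H2-Eb2. Of the 2 start sites of H2-DMa, 1 held a Y pattern and neither held an X or X2 pattern. A match of letters is a description and does not show binding.

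All 7 members had their highest group mean in old mice and their lowest in young mice, with 3HB mice between them. The values are normalized expression as deposited, per gene and mouse. Changes are differences between group means of log2(value + 1), which understate the change of low genes. Old and young mice did not overlap in any of the 7 members, where 54.0% of all listed genes showed old above young without overlap. The listing had used this comparison for 6 of them, so the count supports nothing by itself. The median log2 difference between old and young was 1.58 over the members, 0.76 over all listed genes and 1.14 over the genes listed for age. The last 2 medians include genes lower in old mice, 143 of all 489 and 118 of the 389 listed for age. A median over the rising genes alone was not computed. Against old mice, the 3HB mice were lower on average in all 7 members, with a median log2 difference of -0.86. The median was 0.03 over all listed genes and -0.42 over the 113 listed for 3HB. Both medians mix directions, and of the 113 genes 70 were lower and 43 higher in 3HB mice. In 4 members, the ones listed for 3HB, every 3HB mouse was below every old mouse, while 15.1% of all listed genes showed 3HB below old without overlap. The listing had used this comparison for these 4, so this count too supports nothing by itself. Both comparisons share the old mice. In bulk kidney, fewer cells that express class II genes and less RNA per cell cannot be told apart.

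**Figure D1:**
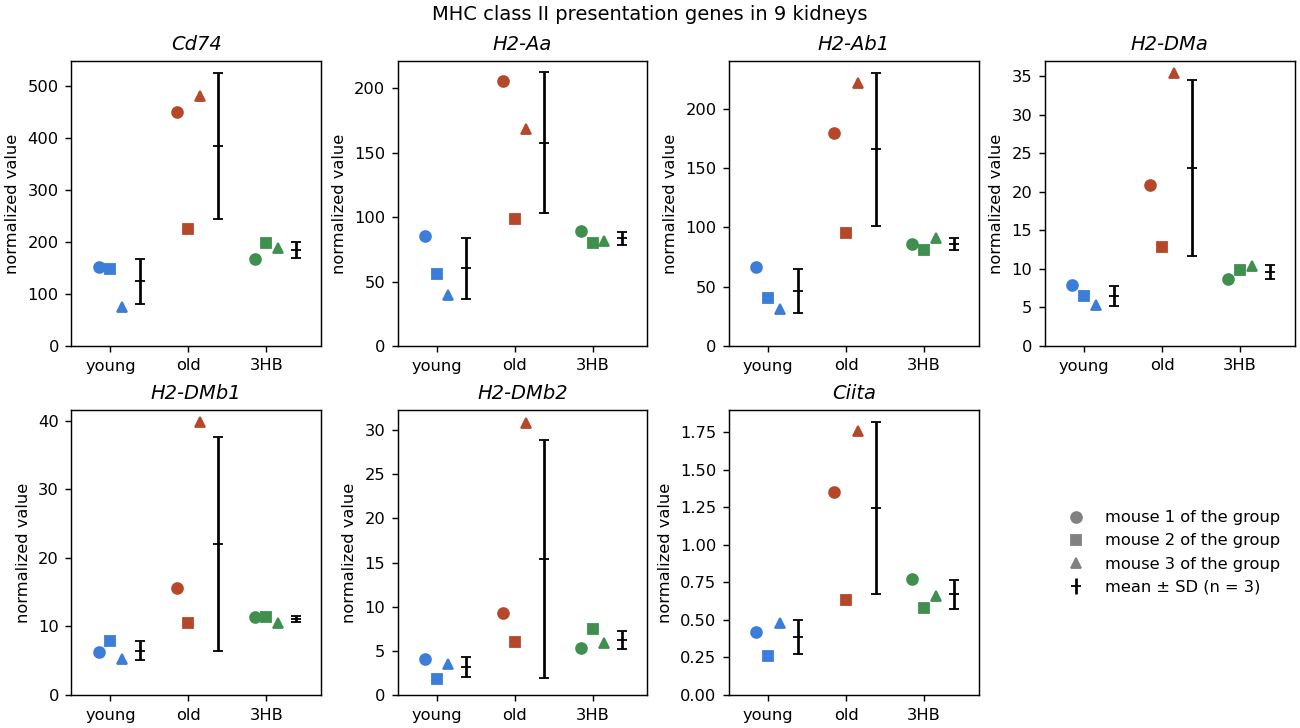
Normalized value of each member (y axis, from 0) in the 3 young, 3 old and 3 3HB mice (x axis), with 1 symbol per mouse and the mean ± SD of the group in black. The old mice spread widely, with old mouse 2 lowest in all 7 genes, while the 3HB mice sit close together.

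Cd74, the invariant chain, had the highest level of the members in every mouse. Its value was 150.7, 147.9 and 73.9 in the young mice, 448.8, 223.8 and 481.1 in the old mice and 166.8, 197.9 and 189.0 in the 3HB mice. Every 3HB mouse lay above every young mouse and below every old mouse. The old mean (384.6 ± 140.1, SD, n = 3) was 3.10 times the young mean (124.1 ± 43.5), a log2 difference of 1.62 (standard error 0.49). The 3HB mean was 184.5 ± 16.0, with a log2 difference of -0.98 from old mice (standard error 0.36).

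H2-Ab1 and H2-Aa encode the beta and alpha chains of the I-A molecule, the class II heterodimer itself. H2-Ab1 was at 66.7, 40.7 and 30.9 in the young mice, 179.9, 95.7 and 222.1 in the old mice and 85.6, 81.1 and 91.3 in the 3HB mice. The ranges of the 3 groups were separate. The difference between old and young was 1.81 on the log2 scale (standard error 0.48) and that between 3HB and old was -0.86 (standard error 0.37). H2-Aa was at 85.6, 55.7 and 39.4 in the young mice, 206.1, 98.4 and 168.9 in the old mice and 89.4, 80.0 and 81.4 in the 3HB mice. H2-Aa was listed for 3HB only, with the old mice as its high group, and its age difference uses the same old mice. Old mice were above young mice in H2-Aa without overlap, by 1.38 on the log2 scale (standard error 0.45), which is given as a description. Of the 57 genes listed for 3HB only with old mice the higher group, 14.0% showed old above young without overlap. The 3HB mice were below all old mice in H2-Aa (log2 difference -0.84, standard error 0.32), and they overlapped with the young mice.

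H2-DMa, H2-DMb1 and H2-DMb2 encode the alpha chain and the alternative beta chains of H2-M, the peptide exchanger. H2-DMa was at 7.83, 6.49 and 5.25 in the young mice, 20.9, 12.9 and 35.4 in the old mice and 8.61, 9.80 and 10.3 in the 3HB mice, with no overlap between any groups. Its log2 difference between 3HB and old mice was -1.08 (standard error 0.41). H2-DMb1 was at 6.31, 7.93 and 5.19 in the young mice, 15.6, 10.6 and 39.8 in the old mice and 11.3, 11.4 and 10.5 in the 3HB mice. H2-DMb2 was at 4.11, 1.86 and 3.46 in the young mice, 9.31, 6.01 and 30.8 in the old mice and 5.37, 7.42 and 5.88 in the 3HB mice. In both beta chain genes old mouse 3 stood far above the other old mice, and old mouse 2 lay within the range of the 3HB mice.

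The beta chain genes were listed for age only, with the old mice high, and their difference with 3HB reuses those old mice. It was -0.72 on the log2 scale for H2-DMb1 (standard error 0.54) and -0.88 for H2-DMb2 (standard error 0.67). The 3HB and old mice overlapped in both. Without old mouse 3 these differences were -0.20 and -0.25, and without old mouse 2 they were -1.11 and -1.34. The differences between old and young mice, 1.43 for H2-DMb1 and 1.71 for H2-DMb2, were 0.91 and 1.08 without old mouse 3. Reads of the H2-DMb genes can be shared, because 19.1% of the 75-base stretches in the longest coding transcript of H2-DMb1 also occur in H2-DMb2 transcripts, so the split between them is uncertain. For Cd74, H2-Aa, H2-Ab1, H2-DMa and Ciita, 0 such stretches occurred in transcripts of another gene. H2-DMa overlaps Brd2 on the opposite strand by 3094 bases and the transcript CR974462.3 on its own strand by 591 bases. Whether the counting used strand is not given in the sources used here, and strand would not separate the latter.

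Ciita, the transactivator of the whole set, had the lowest level of the members. It was at 0.42, 0.26 and 0.48 in the young mice, 1.35, 0.63 and 1.76 in the old mice and 0.77, 0.58 and 0.66 in the 3HB mice. The old mean was 3.22 times the young mean, near the ratio of 3.10 for Cd74, although the log2 difference was only 0.67 (standard error 0.24) with a pseudocount of 1 and 1.39 with one of 0.1. The difference between 3HB and old mice was -0.40 with a pseudocount of 1 (standard error 0.23) and -0.71 with one of 0.1. With a pseudocount of 1 it was -0.23 without old mouse 3 and -0.61 without old mouse 2, and old mouse 2 overlapped with the 3HB mice. Thus 0 of the 3 members listed for age only had 3HB below old without overlap, where 5.81% of the 258 genes listed for age only and higher in old than in young mice did. Ciita overlaps Dexi on the opposite strand by 25888 bases.

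The 3HB mice stayed above the young mice on average in all 7 members, with a median log2 difference of 0.64 against 0.75 over all listed genes. Of those 489 genes, 162 were lower in 3HB than in young mice. In 6 members, all listed for age with the young mice low, there was no overlap, and 54.2% of all listed genes showed 3HB above young without overlap. With a pseudocount of 1 the differences ran from 0.27 for Ciita to 0.96 for H2-Ab1, and with one of 0.1 from 0.54 for H2-Aa to 1.02 for H2-DMb2, with Ciita at 0.68. For H2-Aa the difference was 0.53 (standard error 0.32), and the groups overlapped. It moved to 0.27 without young mouse 3 and to 0.82 without young mouse 1. Without young mouse 3 the difference for Cd74 was 0.30 instead of 0.64, and the median over the members was 0.38. No list was called on this comparison, but both of its groups had entered the comparisons that were.

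**Figure D2:**
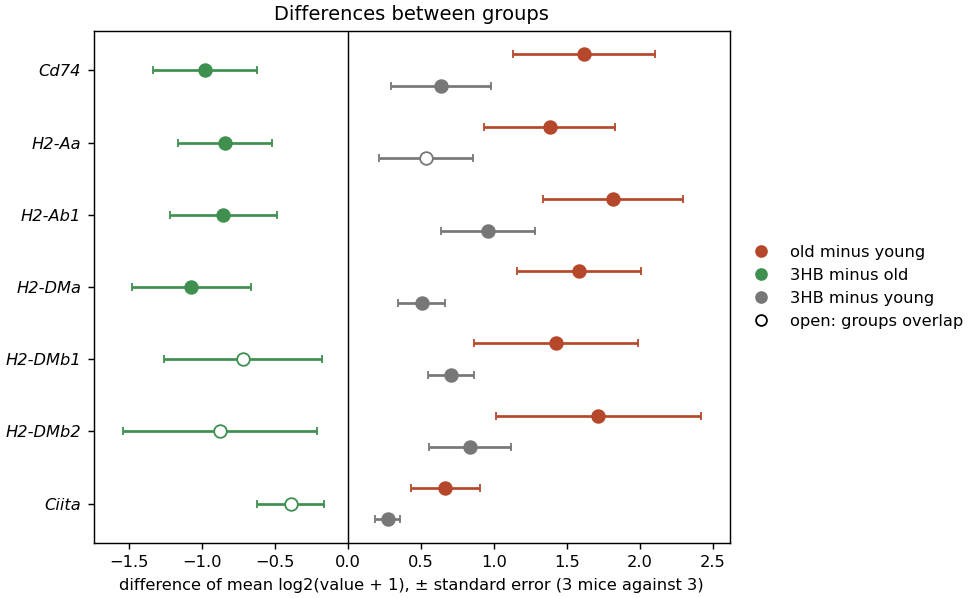
Difference of mean log2(value + 1) between groups (x axis, with the standard error, 3 mice against 3) for each member (y axis), with open symbols where the groups overlap. All old minus young and 3HB minus young differences are positive and all 3HB minus old differences are negative. Open symbols mark H2-DMb1, H2-DMb2 and Ciita for 3HB minus old and H2-Aa for 3HB minus young.

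In each of the 7 members the 3HB mice were the least spread. The coefficient of variation of the old mice lay between 34.7% for H2-Aa and 87.6% for H2-DMb2, and that of the 3HB mice between 4.37% for H2-DMb1 and 17.1% for H2-DMb2. That of the young mice was 19.8% for H2-DMa to 40.2% for H2-Ab1, and for Cd74, H2-Aa and H2-Ab1 it was close to that of the old mice. The spread over all listed genes was not computed, so it is not shown to be particular to the members. Outside them the SD was smaller in 3HB than in old mice for Jchain (9.33 against 144.2) and Lyz2 (4.37 against 26.5). For Keg1 it was larger (223.3 against 131.1). Among the old mice, mouse 2 was lowest in 7 of 7 members and mouse 3 highest in 6 of 7, with H2-Aa highest in old mouse 1. Without old mouse 2, 3HB and old mice were separate in 7 of 7 members, and the median log2 difference was -1.21. Without that mouse, 22.3% of all listed genes had 3HB below old without overlap, against 15.1% with it, and the mouse left out was the lowest in every member. Without old mouse 3 the median was -0.61. The size of the difference between 3HB and old mice therefore depended on which old mice were counted, while its direction stayed the same in all 7 members when any single mouse was left out. Among the young mice, young mouse 1 was highest in 5 members and young mouse 3 lowest in 5.

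The order of levels was compared on the deposited scale. StringTie, named in the processing notes, writes values per transcript length, but the unit is not stated. In each group the order ran from Cd74 through the I-A chains and the H2-M chains to Ciita. Neighbours in this order overlapped for Cd74 and H2-Aa in young mice, for H2-Aa and H2-Ab1 in every group, for H2-DMa and H2-DMb1 in young and old mice, and for H2-DMb1 and H2-DMb2 in old mice. In the 3HB mice, H2-DMb1 was above H2-DMa in all 3 mice.

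Ratios within a mouse, taken of the values without a pseudocount, describe the proportions between the members. Over 21 pairs of members and 3 comparisons, 63 in all, the groups did not overlap in 2, both for H2-Aa over H2-Ab1. The share over pairs of other listed genes was not computed, so the count is a description and supports nothing by itself. This count was not stable, with 12 when 1 was added to each value and 14 without young mouse 3. This ratio of the alpha to the beta chain was 1.28, 1.37 and 1.28 in the young mice, 1.15, 1.03 and 0.76 in the old mice and 1.04, 0.99 and 0.89 in the 3HB mice. On the log2 scale it was lower by 0.44 in old than in young mice (difference -0.44, standard error 0.18) and by 0.43 in 3HB than in young mice (difference -0.43, standard error 0.074). H2-Ab1 was listed for age and H2-Aa was not, so the listing itself favoured a larger age change in the denominator, and both differences are given as a description. Between 3HB and old mice this ratio differed by 0.01 (standard error 0.19).

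In the other 20 pairs the groups overlapped in each comparison when all mice and no pseudocount were used. Cd74 over H2-Ab1 averaged 2.76 ± 0.76 in the young, 2.33 ± 0.16 in the old and 2.15 ± 0.26 in the 3HB group (mean ± SD, n = 3). The median absolute log2 difference over the 21 pairs was 0.22 between old and young, 0.13 between 3HB and old and 0.22 between 3HB and young mice. The median differences of the levels were 1.58, -0.86 and 0.64, with a pseudocount of 1 that shrinks low members, while the ratios had none. As 6 of the 7 members were listed for age, the listing itself favoured similar changes, so these values do not show kept proportions. Old mouse 3, with its high H2-DMb1, stood apart in the ratio of H2-Aa to H2-DMb1. There H2-Aa was 4.24 times H2-DMb1, compared with 13.2 and 9.33 times in the other old mice and 7.04 to 7.90 times in the 3HB mice.

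**Figure D3:**
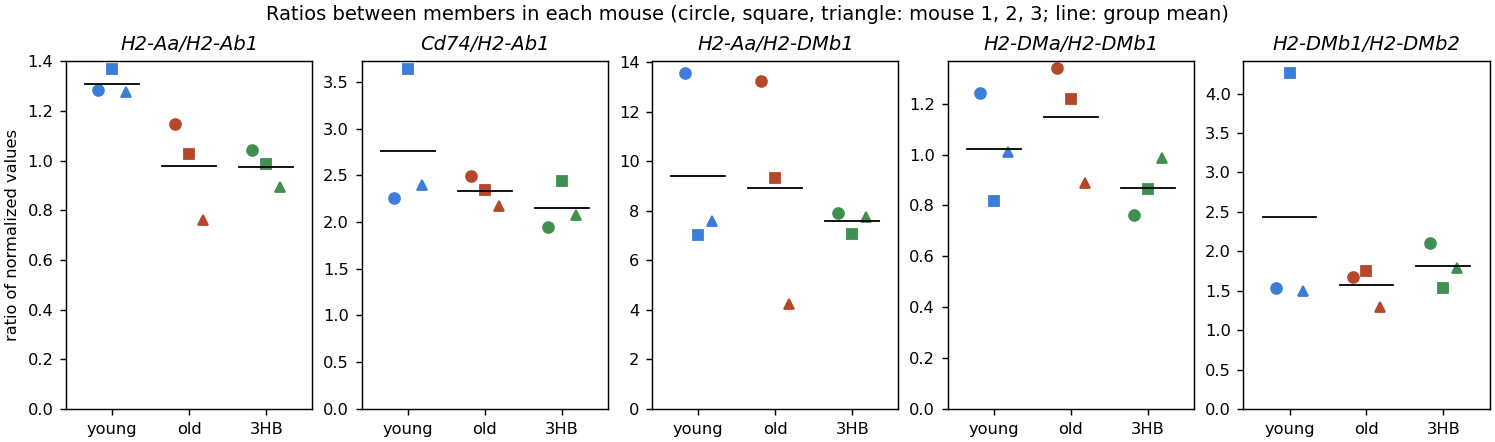
Ratio of normalized values between 5 pairs of members (y axis, from 0) in each young, old and 3HB mouse (x axis), with a line at the group mean. The ratio of H2-Aa to H2-Ab1 lies at 1.28 to 1.37 in the young mice and at or below 1.15 in all 6 mice of 20 months, while the groups overlap in the other 4 pairs.

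Of 30 further genes of the class II pathway looked up (the H2-E and H2-O chains, cathepsins, RFX and NF-Y factors, costimulatory molecules and parts of the interferon-gamma response), 0 were among the listed genes, so their levels were not analysed here. The deposited KEGG annotation places all 7 members in antigen processing and presentation, together with 12 other listed genes, mostly of class I. No other listed gene had a GO term that names MHC class II. Among the 12, 10 were listed for age, and their median log2 difference between old and young mice was 1.07. Over the whole age table the median was 1.14, and 271 of 389 genes were higher in old mice. Of the 10, 7 were higher in old mice, and the 3 that were lower were Cd8a, a T cell coreceptor gene, and H2-T23 and H2-T22 of class I. For 3HB, 4 of the 12 were listed. Of these the chaperone gene Hsp90aa1 was higher (log2 difference 0.89), and the class I genes H2-Q10 (-0.998) and H2-Q4 (-0.52) and the tapasin gene Tapbp (-0.45) were lower than in old mice. Of those listed for age only, H2-Q6 (-1.13), H2-Q2 (-1.06), H2-Q7 (-0.78), H2-M2 (-0.56) and Tap2 (-0.54) were also lower in 3HB than in old mice. Cd8a (0.14), H2-T22 (0.14) and H2-T23 (0.19) were higher. The H2-Q genes are close copies, so their values are uncertain.

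The listed genes most like the members over the 9 mice were found by the root mean square distance to their mean standardized profile. The members ran from H2-DMa (0.15) to H2-DMb2 (0.37), but each member is part of that mean, which draws it near. The median over all listed genes was 0.97. The 8 nearest other genes were Col5a3 (0.24), Ubd (0.29), Ifi47 (0.31), Cxcl11 (0.34), Igtp (0.36), Mdk (0.36), Gm43302 (0.36) and Lgals3bp (0.38). Standardizing gives genes of low value the same weight as Cd74. Col5a3, the nearest, was at 0.15 to 0.25 in the young, 0.43 to 0.87 in the old and 0.26 to 0.41 in the 3HB mice. Cxcl11 was at 0.04 to 0.09 in the young, 0.29 to 0.85 in the old and 0.10 to 0.20 in the 3HB mice. Ubd is a ubiquitin-like modifier, Ifi47 and Igtp are interferon-inducible GTPases and Cxcl11 is an interferon-inducible chemokine, whereas Col5a3 encodes a collagen chain and Mdk the growth factor midkine. Ubd was at 0.29, 0.84 and 0.24 in the young mice, 12.3, 2.02 and 15.6 in the old mice and 1.29, 1.71 and 2.31 in the 3HB mice, again with old mouse 2 far below the other old mice. Mdk was at 170.7, 230.8 and 151.2 in the young mice, 503.7, 264.4 and 528.1 in the old mice and 241.0, 295.9 and 272.8 in the 3HB mice. In Mdk old mouse 2 lay within the range of the 3HB mice. All listed genes were called on these mice, so likeness among them is a description.

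Markers of leukocytes were set beside the members. B cells, macrophages and dendritic cells carry class II molecules, whereas plasma cells largely lose them, and Jchain, Mzb1 and Igkc are highest in plasma cells. Of 12 B and plasma cell markers, 5 were listed (Cd79a, Jchain, Mzb1, Ighm and Igkc), all for age, and all 5 were higher in old mice. Their summed value was 40.3 to 212.8 in the young, 853.5 to 3083.1 in the old and 2305.1 to 3438.5 in the 3HB mice, and Mzb1 was at 0 in young mouse 1. Igkc made up most of these sums. Old mouse 3, highest in 6 members, was the lowest old mouse for Igkc (771.4), Jchain (60.4), Mzb1 (6.02) and Cd79a (0.70). Ighm went the other way, at 21.07, 7.86 and 14.93 in the old mice, with old mouse 2 lowest as in the members. Of 12 macrophage markers 1 was listed, the lysozyme gene Lyz2, at 7.54, 8.12 and 8.69 in the young, 72.01, 22.92 and 29.95 in the old and 34.3, 42.9 and 37.3 in the 3HB mice. Every old and 3HB mouse was above every young mouse in Lyz2, and old mouse 2 was the lowest old mouse. Of 8 T cell markers only Cd8a was listed, and 0 of 11 dendritic cell markers, 0 of 3 markers of all leukocytes and 0 of 4 endothelial markers were. The part of these cells in the class II differences was not tested.

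**Figure D4:**
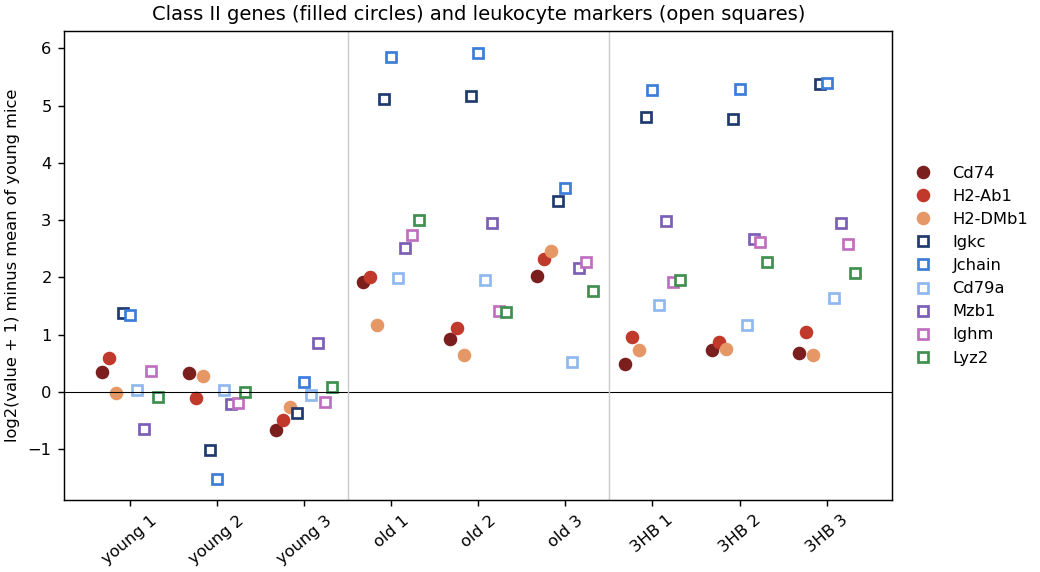
Difference of log2(value + 1) from the mean of the young mice (y axis) in each of the 9 mice (x axis), for Cd74, H2-Ab1 and H2-DMb1 (filled circles) and for Igkc, Jchain, Cd79a, Mzb1, Ighm and Lyz2 (open squares). Among the old mice the class II genes, Ighm and Lyz2 are lowest in old mouse 2, while Igkc, Jchain, Cd79a and Mzb1 are lowest in old mouse 3. In the 3HB mice all 6 markers lie above every young mouse.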

How the data were processed

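Kidney RNA of 9 mice was sequenced by the authors as paired-end reads of 150 bp. The submitters' processing notes name CASAVA, HISAT2, StringTie and GRCm38, without roles or versions. The authors deposited 2 tables of normalized signal with 2 decimals (TPM or FPKM is not stated), which hold only the genes they called, 389 for age and 113 for 3HB. The test and threshold of the calls are not given in the sources used here. A fit across all genes was therefore not made, and the planned form for called genes was used. Total reads are not in the tables. Over single-transcript genes, at most 52.9% of the low values of a mouse were within 0.1 of whole reads at the best step, so depth is unknown and no counting interval is given. Precision rests on 3 mice per group, taken from the titles of the samples.

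Group differences, standard errors, exact permutation tests over 20 splits and ratios were computed in Python 3.11.15 (numpy 2.4.6, pandas 2.3.3, scipy 1.17.1, matplotlib 3.10.9) and tested on simulated data. A pseudocount of 1 was used for levels and none for ratios. Permutation p-values, planned for ratios and for members that a comparison had not listed, are not printed because the mice of those comparisons had entered the listing. Gene positions, overlaps and shared stretches came from GENCODE mouse release 21, where 479 of 489 identifiers and all 7 members matched. Named genes were the members, listed genes of the pathway and marker lists, and the 8 most alike in pattern, and other named genes were chosen after their values were seen. The members and lists were chosen with earlier results of these data known. Alternatives covered the pseudocount, low values, the median, identifier matching, pairing by number and each mouse left out.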

Additional observations from a re-analysis of the deposited data

How the results depend on the processing

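The median differences over the members kept their direction under every alternative run. With a pseudocount of 0.1 they were 1.62, -0.86 and 0.68 for old minus young, 3HB minus old and 3HB minus young. Leaving out each mouse in turn gave 1.23 to 1.92, -1.21 to -0.61 and 0.38 to 0.81. For single members, 231 of 231 alternative values had the direction of the reported one. This count includes settings that could not change the value, namely the minimum level, identifier matching and the replicate block. Some of the directions had also been used by the listing, so the count supports nothing by itself. The members without overlap between 3HB and old mice numbered 4 to 7 when single mice were left out, with 7 without old mouse 2, where the share over all listed genes was 22.3%. The ratios without overlap, 2 of 63, were the least stable count, with 12 for a pseudocount of 1 and 2 to 14 with single mice left out, the most without young mouse 3. With a mouse left out, a group of 2 overlaps less readily than a group of 3. With a replicate block that paired mice by number, the median differences were 1.58, -0.86 and 0.64 and 9 ratios had 1 sign in all pairs, but the numbers do not pair the mice: deviations of same-numbered mice correlated above 0.1 in 2 of 9 pairs, and mice correlated best with their own number in 2 of 9 cases. An exact sign-flip test of 3 pairs cannot go below 0.25. A minimum of 1 for the highest group mean removed no member, and rows of genes in both tables were identical. Total reads are unknown, so whether the low values of Ciita are limited by depth was not tested.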
